A study of Mus musculus with 6 samples.

Results

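The interleukin 33 and ST2 axis was followed through 5 genes, chosen by name as a ligand, its receptor, the co-receptor, a transcription factor of the responding cells and an effector. They are Il33, Il1rl1, Il1rap, Gata3 and Areg, 5 of the 32285 genes counted, and the files list each of them in all 6 libraries. The libraries hold nuclei of subcutaneous white adipose tissue, read by single-nucleus RNA sequencing in droplets (10x Genomics 3′ chemistry) after isolation on a sucrose gradient and sorting on DAPI, a DNA dye. The 3 FLOX libraries come from GPSM1f/f mice, in which Gpsm1, a gene for a modulator of inhibitory G proteins, is flanked by loxP sites. The 3 CKO libraries come from GPSM1ΔTreg mice, in which, by the genotype's name, that gene is removed in regulatory T cells (Treg cells). Every mouse had been fed high-fat chow. A label gives 12 weeks of it, while the protocol states a range of 5 to 12 weeks. The labels name 3 mice of each genotype, and each library is 1 replicate. The Cre driver, whether FLOX mice carry it, and which exons were removed are not stated in the labels.

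Interleukin 33 is an alarmin of the interleukin 1 family. It is held in the nucleus of stromal, endothelial and epithelial cells and is released when they are damaged. It binds ST2, the product of Il1rl1, which pairs with the accessory protein encoded by Il1rap and signals through the adaptor Myd88. In adipose tissue it is known for sustaining Treg cells and group 2 innate lymphoid cells (ILC2), both of which can carry ST2. GATA-3, the product of Gata3, is a transcription factor of type 2 lymphocytes that also acts in mammary epithelium. Amphiregulin, the product of Areg, is a ligand of the EGF receptor that such lymphocytes can release.

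Positions are on mm10, from GENCODE vM21. Il33 (ENSMUSG00000024810) lies on chromosome 19 from 29925114 to 29960718, on the plus strand. Il1rl1 (ENSMUSG00000026069) lies on chromosome 1 from 40429570 to 40465415, on the plus strand. Il1rap (ENSMUSG00000022514) covers 26581704 to 26730117 of chromosome 16, also on the plus strand. Gata3 (ENSMUSG00000015619) lies on the minus strand of chromosome 2, from 9857078 to 9890034. Areg (ENSMUSG00000029378) lies on chromosome 5 from 91139599 to 91148432, on the plus strand.

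The 5 genes have 7 promoter windows in RefSeq (GRCm38.p6), read here as the 250 bases before each start. The GATA motif was searched on both strands, as AGATAA or as AGATAG, and likewise as TGATAA or as TGATAG. At least 1 match stood in 26.5% of all 32851 windows of this length. Of the 7 windows, only the pair of Il1rl1 held a match, and these are shown because Il1rl1 and Gata3 were both lower in CKO T-cell-like nuclei. The distal window, just before the gene's first base, held 5 matches, a number reached by 14 windows (0.0426%). The proximal window, before a start inside the gene, held 1. Capitals mark the matches, and both lines read 5′ to 3′ on the plus strand.
Il1rl1 distal, chr1:40429320-40429569: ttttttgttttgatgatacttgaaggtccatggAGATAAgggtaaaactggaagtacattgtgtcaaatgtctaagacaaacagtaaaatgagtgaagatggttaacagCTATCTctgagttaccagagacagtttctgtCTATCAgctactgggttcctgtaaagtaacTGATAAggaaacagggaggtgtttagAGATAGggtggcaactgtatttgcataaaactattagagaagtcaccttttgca
Il1rl1 proximal, chr1:40439379-40439628: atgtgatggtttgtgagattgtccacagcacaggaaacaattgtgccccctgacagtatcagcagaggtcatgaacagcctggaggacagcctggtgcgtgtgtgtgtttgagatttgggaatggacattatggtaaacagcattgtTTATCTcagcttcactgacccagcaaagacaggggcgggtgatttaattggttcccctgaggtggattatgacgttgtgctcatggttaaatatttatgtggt
A match is a run of letters and not a measured binding site, and a link between the levels of Gata3 and Il1rl1 was not tested. The counts are per gene, so membrane-bound and soluble ST2 were not told apart.

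After filtering, 56226 of 65162 barcodes were kept, with 9113 to 9314 nuclei and 40814518 to 48605464 unique molecular identifiers (UMIs) in a FLOX library and 9358 to 9729 nuclei and 33200406 to 35522426 UMIs in a CKO library. All 3 FLOX libraries were thus deeper than all 3 CKO libraries. Any 2 libraries shared 24 to 44 barcodes, and libraries of 1 group differed from each other by far more than counting noise (chi-square per degree of freedom 32.7 to 84.3). Nuclei were clustered without the 5 genes and named from markers, where "like" marks a name that rests on markers alone. FLOX 3 stood apart: cluster 11, led by adipocyte genes, had 88.3% of its 3272 nuclei from that library and took no name, so its nuclei are outside the adipocyte-like class. Lymphocytes were more numerous in the CKO libraries: T-cell-like nuclei made up 0.999 to 1.91% of FLOX and 3.98 to 13.3% of CKO libraries, and B-cell-like nuclei 1.01 to 5.05% and 12.2 to 38.0%. The summed level of 7 lymphoid stroma markers, such as Cxcl13 and Ccl19, was 14.6 to 34 CPM (UMIs per 1000000 UMIs of the summed nuclei) in FLOX and 72.3 to 269 CPM in CKO libraries, and all 7 were detected. The targeted gene Gpsm1 checks the labels only weakly, because a 3′ count may include a deleted allele. In T-cell-like nuclei it was at 31.0, 49.9 and 18.4 CPM in FLOX 1, 2 and 3 and at 21.0, 22.1 and 19 CPM in CKO 1, 2 and 3 (log2 fold change -0.52, adjusted p = 0.596, edgeR). Over the whole tissue it was at 27.1, 30.9 and 24.0 CPM in FLOX and 38.3, 38.4 and 33.8 CPM in CKO libraries (0.34, SE 0.12, adjusted p = 0.122, edgeR), groups that did not overlap, as for 42% of genes in that sum. It was at 0.34 in adipocyte-like nuclei (adjusted p = 0.143, edgeR) and 0.97 in cluster 13, a part of that class (adjusted p = 0.0957, edgeR). The fold change was above 0 in these 3 sums, and none passed.

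The kept nuclei held 3992 UMIs of Il33 in 2327 nuclei, 2966 of Il1rl1 in 1864 nuclei, 10024 of Il1rap in 6853 nuclei, 1837 of Gata3 in 1059 nuclei and 60 of Areg in 32 nuclei. The genes differ in span, so these totals are no ranking of expression. Few nuclei held both ligand and receptor: 30 had a UMI of both Il33 and Il1rl1. With counts this sparse such nuclei would be few in any case, so the number shows no separation within a class. Il33 belonged to stroma, adipocytes and lymphatic endothelium, Il1rl1 to macrophages and a few lymphocytes, and Gata3 to epithelium and lymphocytes, while Il1rap was found in each of the 10 classes with at least 20 nuclei in every library.

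**Figure D1:**
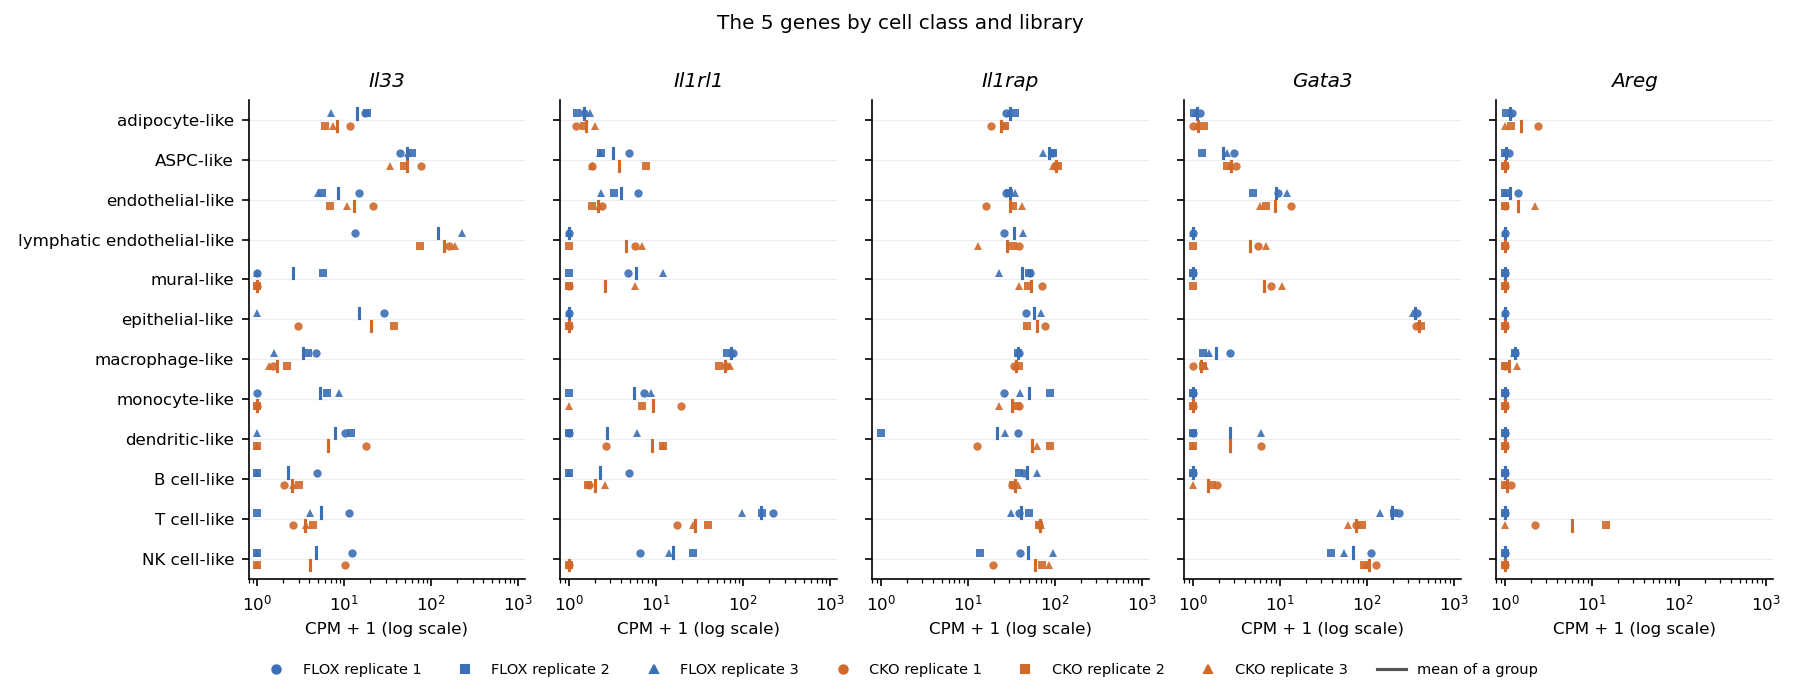
Level of each gene (horizontal axis, CPM + 1 on a log scale) in each marker-named class (vertical axis). Points are libraries with at least 20 nuclei in the class, blue for FLOX and orange for CKO, and vertical ticks are group means. Il33 is high in ASPC-like and lymphatic endothelial-like nuclei, Il1rl1 in macrophage-like and T-cell-like nuclei and Gata3 in epithelial-like, T-cell-like and NK-cell-like nuclei, while Il1rap has no empty class.

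The ligand gene Il33 came mainly from the stroma. Nuclei with markers of stem and progenitor cells of fat (ASPC-like), the fibroblast-type cells from which adipocytes arise, were 21.0% of kept nuclei and held 46.6% of Il33 UMIs. Its level in this class was 43.4, 59.2 and 52.6 CPM in FLOX 1, 2 and 3 and 76.0, 48.0 and 33.1 CPM in CKO 1, 2 and 3. The CKO values lie on both sides of the FLOX values. The log2 fold change of CKO over FLOX was -0.01 (SE 0.29, adjusted p = 0.996, edgeR), with a sign that turned under other settings. In this class 0.421% of genes passed at an adjusted p under 0.05 (58 genes, and 6 up and 6 down with the replicate number as a block).

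Within the ASPC-like class, Il33 was concentrated in 1 cluster of 3. Cluster 3, led by Sema3e and by Pi16, a marker of progenitors in the fibrous septa of fat, held 42.7% of all Il33 UMIs at 77.4, 118 and 102 CPM in FLOX 1, 2 and 3 and 113, 85.0 and 56.2 CPM in CKO 1, 2 and 3. Cluster 18, led by Pde11a and Col3a1, was at 4.31 to 8.42 CPM over the 6 libraries. Cluster 19, led by C7 and Gdf10, was at 10.8 to 28.4 CPM. In all 6 libraries cluster 3 was therefore above both of the others. The share of nuclei with an Il33 UMI was 15.8% in cluster 3, 1.69% in cluster 18 and 5.22% in cluster 19, against 14 of 7069 B-cell-like nuclei (0.198%), which should lack the gene. The median depth of these clusters was 2611, 3101 and 2978 UMIs per nucleus, and that of B-cell-like nuclei 1378 UMIs. Between the groups, the log2 fold change was -0.24 (SE 0.26, adjusted p = 0.861, edgeR) in cluster 3 and 0.15 in cluster 19 (adjusted p = 0.966), tests added after seeing the data. Of all genes, 0.0831% passed in cluster 3 and 0% in cluster 19, where 473 had an unadjusted p under 0.05.

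Adipocyte-like nuclei held a further 36.8% of Il33 UMIs, and again the gene was uneven among clusters. Clusters 8 and 13, led by Ptger3 and Peg10 and by Mageb18 and Ptchd4, held most of it. Cluster 8 was at 16.7, 18.5 and 8.22 CPM in FLOX 1, 2 and 3 and 13.9, 8.99 and 11.6 CPM in CKO 1, 2 and 3. Cluster 13 was at 25.9, 26.8 and 9.55 CPM in the FLOX and 25.4, 10.6 and 14.8 CPM in the CKO libraries. Clusters 10 and 15, led by Vat1l and by Nrg4 and Pck1, reached at most 3.21 and 3.75 CPM in any library. In every library Il33 was thus higher in clusters 8 and 13 than in clusters 10 and 15.

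Over the whole adipocyte-like class, Il33 was at 16.2, 17.4 and 6.12 CPM in FLOX 1, 2 and 3 and 10.7, 5.04 and 6.51 CPM in CKO 1, 2 and 3. FLOX 3 lay among the CKO libraries, so the groups overlapped. CKO over FLOX gave a log2 fold change of -0.93 (SE 0.42, adjusted p = 0.245, edgeR), in a class where 2.73% of genes passed, and -1.26 (adjusted p = 0.0799) without FLOX 3. The makeup of the class moved with it: the clusters with more Il33, 8 and 13, were 30.9 ± 5.41% and 26.2 ± 2.75% of adipocyte-like nuclei in FLOX and 14.8 ± 4.91% and 13.1 ± 3.71% in CKO libraries (SD, n = 3), and cluster 15 was 16.2 ± 8.71% and 44.7 ± 3.04%. Within cluster 13 the log2 fold change was -0.37 (SE 0.45, adjusted p = 0.781, edgeR), where 0.137% of genes passed (18 genes, and 28 up and 64 down with the block). The part of the makeup in the class value was not tested further. The share of adipocyte-like nuclei with an Il33 UMI was 8.12 ± 3.21% in FLOX and 3.04 ± 1.52% in CKO libraries (exact permutation p = 0.2), and 0.964 ± 0.522% and 0.460 ± 0.248% once each nucleus was thinned to 1000 UMIs.

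Vascular and minor stromal nuclei gave the highest Il33 levels but few UMIs. Lymphatic endothelial-like nuclei, 216 in all, had 87 Il33 UMIs and 139 CPM when pooled, with 12.5, 140 and 228 CPM in FLOX 1, 2 and 3 and 159, 73.9 and 185 CPM in CKO 1, 2 and 3. These levels rest on 27, 8 and 20 nuclei in FLOX 1, 2 and 3 and 67, 38 and 56 nuclei in CKO 1, 2 and 3. Among blood endothelial nuclei the gene was largely confined to cluster 2, led by Selp and Vwf, genes of venous endothelium, where 66 of the 79 endothelial-like UMIs lay, at 35.5 to 179 CPM over the libraries. Over the endothelial-like class the log2 fold change was 0.54 (SE 0.57, adjusted p = 0.873, edgeR), where 0.105% of genes passed (11 genes, and 19 up and 4 down with the block). Cluster 33, which took no name because mural markers rivalled those of lymphoid stroma, was led by Ccl19, Robo2 and Cxcl13. It held 252 nuclei, of which 0, 0 and 8 came from FLOX 1, 2 and 3 and 142, 27 and 75 from CKO 1, 2 and 3. Its Il33 level was 191, 164 and 183 CPM in CKO 1, 2 and 3, and a UMI was found in 82 of the 252 nuclei (32.5%). It gave 4.53% of all Il33 UMIs, and without a full set of FLOX nuclei its levels could not be compared between groups. The epithelial-like cluster 26 had 127 CPM when pooled.

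**Figure D2:**
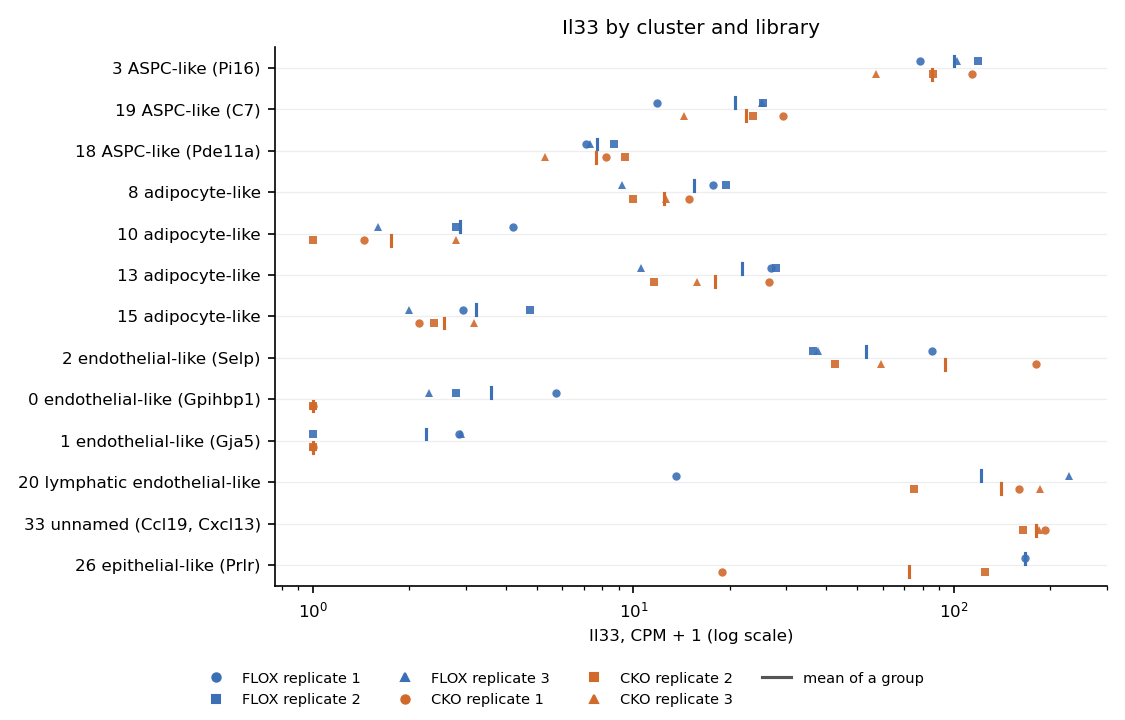
Il33 level (horizontal axis, CPM + 1 on a log scale) in 13 clusters (vertical axis, with leading genes). Points are libraries with at least 10 nuclei in the cluster and vertical ticks are group means. The Pi16 cluster stands above the other ASPC-like clusters, adipocyte-like clusters 8 and 13 above 10 and 15, and cluster 33 has points for CKO libraries alone.

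Summed over all kept nuclei, Il33 was at 18.2, 21.2 and 12.2 CPM in FLOX 1, 2 and 3 and 20.6, 14.2 and 12.0 CPM in CKO 1, 2 and 3. The groups overlapped, with a log2 fold change of -0.23 (SE 0.27, adjusted p = 0.628, edgeR). Of all genes in this sum 0.0414% passed (8 genes, and 696 up and 442 down with the block). In such a sum fewer cells of a type and less RNA per cell cannot be told apart. The order of the class means ran from ASPC-like (52.0 ± 14.7 CPM, SD over 6 libraries) to adipocyte-like (10.3 ± 5.37), endothelial-like (9.83 ± 6.51) and dendritic-like nuclei (6.20 ± 7.22). ASPC-like was above adipocyte-like in 6 of 6 libraries (exact paired permutation p = 0.031, the smallest that 6 pairs give, and 0.281 after adjustment over 9 neighbours). No later neighbours differed beyond their spread. The genes with the pattern over 13 class means most like that of Il33 were Flrt3, Fgf12 and Nexmif (Pearson r of log2(CPM + 5) 0.93, 0.93 and 0.92, among 12363 genes). These classes share libraries and depth, so the values are descriptions.

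The receptor gene Il1rl1 was found mainly in macrophages. Macrophage-like nuclei were 14.3% of kept nuclei and held 55.3% of its UMIs, at 75.3, 64.6 and 73.7 CPM in FLOX 1, 2 and 3 and 63.5, 52.1 and 69.1 CPM in CKO 1, 2 and 3. The highest CKO library lies above the lowest FLOX library. The log2 fold change was -0.19 (SE 0.13, adjusted p = 0.593, edgeR), where 0.533% of genes passed (65 genes, and 0 with the block, where 1563 had an unadjusted p under 0.05). The sign was not stable, at 0.10 with classes by marker score, so no direction is given. An Il1rl1 UMI was seen in 13.9% of macrophage-like nuclei, against 0.434% of adipocyte-like nuclei, which should lack it, at median depths of 2616 and 7731 UMIs.

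Macrophage clusters differed in Il1rl1. Cluster 4, led by Ms4a4a, Mgl2 and the mannose receptor gene Mrc1, was at 90.3 to 145 CPM over the 6 libraries. Cluster 5, led by Cd209f and F13a1, was at 33.4 to 65.4 CPM, and cluster 9, led by Atp6v0d2, Gpnmb and Trem2, genes of lipid-associated macrophages, was at 17.1 to 48.5 CPM. Cluster 4 was thus above both of the others in each library. Its fold change between groups was -0.29 on the log2 scale (SE 0.15, adjusted p = 0.856, edgeR), and that of cluster 5 -0.22 (SE 0.23, adjusted p = 0.953), where 0% of genes passed in either (560 and 480 genes had an unadjusted p under 0.05). Cluster 12 had a pooled level of 217 CPM, above that of each macrophage-like cluster, and is no macrophage-like cluster by name, since it reached the limits of no list. It was led by Grm8, Fcrls, Lyz1 and Aldh1a2, with Ear2 and Retnla among its first 10 genes. Its 1064 nuclei, 1.89% of all, held 23.1% of Il1rl1 UMIs, and 34.8% of them had at least 1. The level was 210, 232 and 265 CPM in FLOX 1, 2 and 3 and 147, 243 and 241 CPM in CKO 1, 2 and 3 (log2 fold change -0.17, SE 0.19, adjusted p = 0.889, edgeR), where 0.159% of genes passed (11 genes, and 11 up and 11 down with the block). The macrophage markers of cluster 12 summed to 3226 to 5162 CPM in FLOX and 3474 to 4935 CPM in CKO libraries, below the 8738 to 12248 CPM of macrophage-like nuclei over both groups.

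Cluster 9 gave the largest difference in the receptor among these clusters. Il1rl1 was at 48.5, 48.2 and 29.5 CPM in FLOX 1, 2 and 3 and 29.6, 17.1 and 24.1 CPM in CKO 1, 2 and 3, where FLOX 3 and CKO 1 lie side by side. CKO over FLOX gave a log2 fold change of -1.01 (SE 0.29, adjusted p = 0.404, edgeR) and did not pass, while 0.0424% of genes did (4 genes, and 10 up and 20 down with the block). With no filter on low counts it passed at -1.04 (adjusted p = 0.0401). The CKO sums of this cluster rest on 9, 15 and 9 UMIs in 65, 263 and 104 nuclei. Cluster 9 was 32.0 ± 3.62% of macrophage-like nuclei in FLOX and 14.1 ± 5.35% in CKO libraries.

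**Figure D3:**
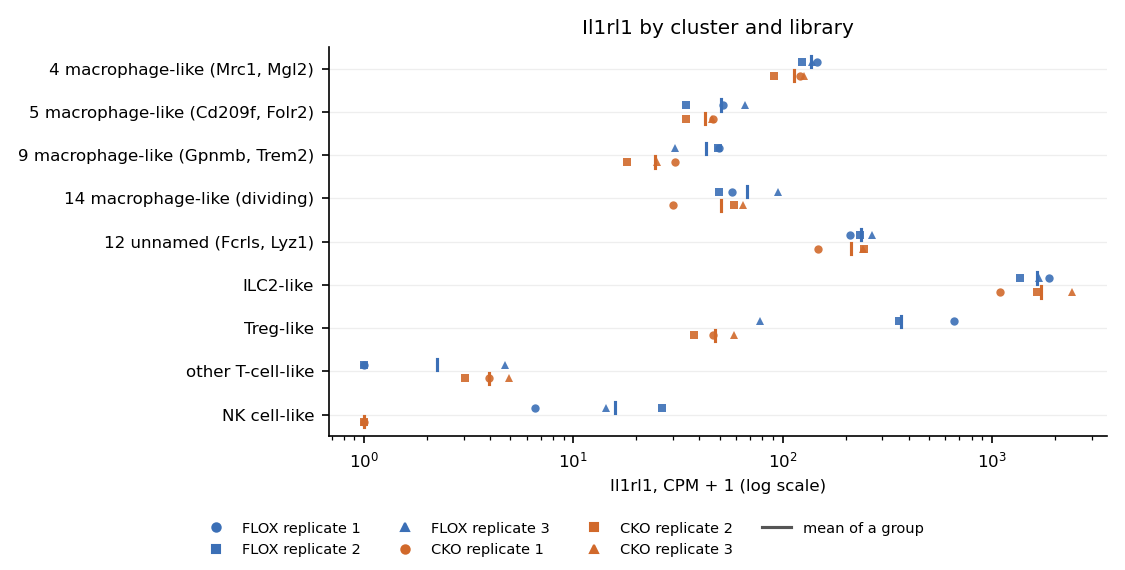
Il1rl1 level (horizontal axis, CPM + 1 on a log scale) in macrophage-like clusters, cluster 12 and lymphoid nuclei (vertical axis). Points are libraries with at least 3 nuclei, and vertical ticks are group means. ILC2-like nuclei stand between 1089 and 2403 CPM in both groups, and Treg-like nuclei between 77.1 and 660 CPM in FLOX and between 36.7 and 57.7 CPM in CKO libraries.

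Among lymphoid nuclei Il1rl1 marked a small ILC2-like group. T-cell-like and NK-cell-like nuclei were clustered again without the 5 genes, and 48 nuclei had 7 of 10 ILC2 markers raised, none of which is one of the 5 genes. They came from every library, with 15, 7 and 6 nuclei in FLOX 1, 2 and 3 and 8, 9 and 3 in CKO 1, 2 and 3. Il1rl1 was detected in 40 of the 48 nuclei and Gata3 in 37. The T cell gene Cd3e was detected in 4 of them and Cd4 and Foxp3 in none. Their Il1rl1 level was 1875, 1359.6 and 1681 CPM in FLOX 1, 2 and 3 and 1089, 1649.9 and 2403 CPM in CKO 1, 2 and 3. The groups overlapped (1639 ± 260 and 1714 ± 659 CPM, SD, n = 3, exact permutation p = 1). Il5 and Il13, cytokines for which ILC2 are known, are on the list of 10 markers and had 1 UMI each in this group. In a group this small 1 UMI is enough for a marker to count as raised. Outside it, 41 nuclei with at least 3 of 8 mast cell genes carried 70 Il1rl1 UMIs in 29 nuclei, and 26 of the 41 were in FLOX 3.

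Over all T-cell-like nuclei, Il1rl1 fell. Its level was 220, 164 and 95.3 CPM in FLOX 1, 2 and 3 and 16.6, 39.1 and 25.6 CPM in CKO 1, 2 and 3. All 3 CKO libraries lay below all 3 FLOX libraries. The log2 fold change was -2.72 (SE 0.33, adjusted p = 0.000248, edgeR), in a class where 3.89% of genes passed and 18.6% of genes at 5 CPM or more had groups that did not overlap. It was -3.03 (adjusted p = 9.58e-07) without FLOX 3 and -2.27 (adjusted p = 0.123) when nuclei were given classes by their own marker score. The share of nuclei with a UMI was 7.75 ± 2.90% in FLOX and 1.90 ± 0.668% in CKO libraries, and 7.42 ± 2.05% and 1.51 ± 0.763% after thinning to 1000 UMIs (exact permutation p = 0.1 for each, the smallest that 3 against 3 allow, and 0.75 after adjustment over 45 shares).

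The number of ST2-bearing nuclei did not move in the same way. Il1rl1-positive T-cell-like nuclei numbered 19, 7 and 8 in FLOX 1, 2 and 3 and 19, 10 and 12 in CKO 1, 2 and 3. Per 10000 kept nuclei they were 12.2 ± 7.12 in FLOX and 14.3 ± 4.64 in CKO libraries (SD, n = 3, exact permutation p = 0.6). All T-cell-like nuclei were 1.56 ± 0.491% and 8.51 ± 4.67% of kept nuclei. The makeup of the class differed: ILC2-like nuclei were 8.43, 7.69 and 3.66% of it in FLOX 1, 2 and 3 and 0.618, 2.40 and 0.389% in CKO 1, 2 and 3. An unnamed sub-cluster, with Itga1 and Gzmk among its leading genes, was 22.4 ± 9.13% of it in FLOX and 7.31 ± 5.30% in CKO libraries. Its FLOX 3 value (12.2%) lay below that of CKO 2 (13.3%). Both sub-clusters with raised Cd8a and Cd8b1 were larger parts of the class in CKO (13.1 ± 5.39% and 12.9 ± 2.96%) than in FLOX libraries (6.10 ± 0.488% and 4.8 ± 1.75%).

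Without the ILC2-like nuclei, a set added after seeing the data, the gene was too low in the class for the edgeR test. Its level was then 60.3, 54.5 and 12.9 CPM in FLOX 1, 2 and 3 and 10.2, 6.94 and 12.5 CPM in CKO 1, 2 and 3, so that FLOX 3 and CKO 3 nearly met (exact permutation p = 0.1). Without the Treg-like nuclei as well it was at 0, 0 and 3.70 CPM against 2.94, 2.02 and 3.92 CPM. Of the 221 Il1rl1 UMIs in T-cell-like nuclei, 146 were thus in ILC2-like and 62 in Treg-like nuclei.

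Treg-like nuclei, named from Foxp3, Il2ra, Ikzf2, Ctla4, Tnfrsf18 and Tnfrsf4, numbered 45 in FLOX and 391 in CKO libraries. Il1rl1 was at 660, 358 and 77.1 CPM in FLOX 1, 2 and 3 and 45.7, 36.7 and 57.7 CPM in CKO 1, 2 and 3. The FLOX levels rest on 16, 7 and 3 UMIs in 13, 14 and 18 nuclei, and FLOX 3, with the fewest UMIs, stood nearest to the CKO libraries. A UMI was seen in 8 of 45 FLOX and 19 of 391 CKO Treg-like nuclei. Foxp3 itself had a UMI in 60 of the 436 nuclei, so the group rests on the whole marker list. Of the 27 Treg-like nuclei with Il1rl1, 8 also held Klrg1, against 6 of the 409 without it. Klrg1 encodes a receptor of tissue-type Treg cells and is also on the list of ILC2 markers used here. These counts pool the nuclei of all libraries without matching their depth. Whether the nuclei with both genes are Treg or ILC2 nuclei was not tested.

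**Figure D4:**
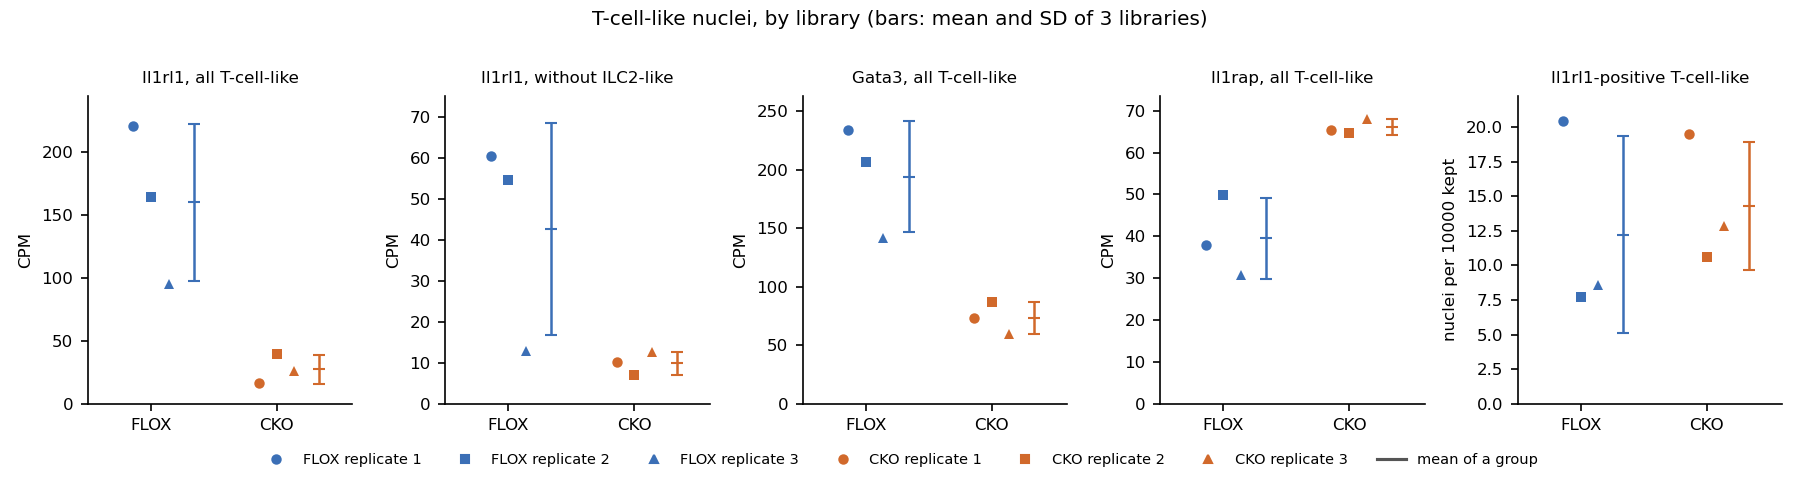
Levels in T-cell-like nuclei by library (vertical axes, CPM, and in the last panel Il1rl1-positive nuclei per 10000 kept nuclei), with the mean and SD of 3 libraries beside the points. Il1rl1 and Gata3 are lower in all 3 CKO libraries and Il1rap is higher, while the number of Il1rl1-positive nuclei overlaps between groups.

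Over the whole tissue Il1rl1 was at 16.0, 11.2 and 14 CPM in FLOX 1, 2 and 3 and 8.14, 11.2 and 12.1 CPM in CKO 1, 2 and 3. The groups overlapped, with CKO 3 above FLOX 2, while those of 42% of genes in this sum did not. The log2 fold change was -0.48 (SE 0.19, unadjusted p = 0.0400, adjusted p = 0.157, edgeR) and did not pass. Macrophage-like nuclei, its main source, were 22.3, 23.4 and 10.9% of the FLOX libraries and 5.93, 13.8 and 10.3% of the CKO libraries. In the order of class means T-cell-like (93.4 ± 83.1 CPM, SD over 6 libraries) and macrophage-like nuclei (66.4 ± 8.45) did not differ beyond their spread, and T-cell-like was the higher in 3 of 6 libraries, the FLOX ones. Macrophage-like was above NK-cell-like (7.39 ± 10.3) in 6 of 6 libraries (exact paired permutation p = 0.031, adjusted 0.281). The genes most like Il1rl1 in pattern were C030034L19Rik (0.97), Tnfrsf25, a TNF receptor family member (0.84), and Gm15503 (0.82), by the same measure.

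The co-receptor gene Il1rap was broad. ASPC-like and adipocyte-like nuclei held 34 and 35.1% of its UMIs. The class means ran from 93.2 ± 12.1 CPM in ASPC-like over 52.8 ± 34.3 CPM in NK-cell-like, the next class, to 26.2 ± 5.21 CPM in adipocyte-like nuclei. ASPC-like was above NK-cell-like in 5 of 6 libraries, and no neighbours passed. The highest Il1rap level was in cluster 30, 108 nuclei led by the liver genes Alb and Cps1, at 420 CPM when pooled. In ASPC-like nuclei it was at 92.3, 93.3 and 71.5 CPM in FLOX 1, 2 and 3 and 100, 108 and 94.1 CPM in CKO 1, 2 and 3. These groups did not overlap but nearly touched, as did those of 16.9% of genes in the class, and the log2 fold change was 0.22 (SE 0.11, adjusted p = 0.504, edgeR). In adipocyte-like nuclei it was at 26.2, 33.6 and 28.4 CPM against 17.5, 25.7 and 26 CPM, with groups that did not overlap, as for 34.2% of genes there (log2 fold change -0.42, SE 0.16, adjusted p = 0.184, edgeR).

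In T-cell-like nuclei Il1rap was at 37.8, 49.9 and 30.7 CPM in FLOX 1, 2 and 3 and 65.5, 64.6 and 68.1 CPM in CKO 1, 2 and 3, the opposite order to Il1rl1. CKO over FLOX gave a log2 fold change of 0.83 (SE 0.27) and did not pass (adjusted p = 0.0959, edgeR). The FLOX sums rest on 11, 7 and 10 UMIs. Without ILC2-like nuclei it was 0.90 (adjusted p = 0.0937). ILC2-like nuclei held 5 Il1rap UMIs. In B-cell-like nuclei it was at 42.9, 37.6 and 60.6 CPM against 31.3, 32.0 and 36.8 CPM (log2 fold change -0.67, SE 0.24, adjusted p = 0.258, edgeR), where 0.312% of genes passed (29 genes, and 69 up and 62 down with the block) and the groups of 15.4% did not overlap. Macrophage-like nuclei stood at 32.6 to 37.7 CPM over the 6 libraries. In the unnamed cluster 11 the libraries spread from 7.60 to 66.2 CPM, with groups that overlapped, unlike those of 9.17% of genes there. By pattern, Gpm6b (0.91), the calcium-binding protein gene S100a6 (0.87) and Fip1l1 (0.86) were most like it.

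The transcription factor gene Gata3 had 2 main sources. Epithelial-like nuclei, named from keratins and Epcam, were 1.67% of kept nuclei and held 54.7% of its UMIs, at 384 CPM when pooled. Of their clusters, cluster 26, led by the prolactin receptor gene Prlr, was at 832 CPM. These nuclei were unevenly caught, at 3.14, 0.143 and 0.633% of FLOX 1, 2 and 3 and 1.61, 4.34 and 0.118% of CKO 1, 2 and 3. Over the whole tissue Gata3 was at 10.0, 1.01 and 4.58 CPM in FLOX 1, 2 and 3 and 12.5, 14.5 and 6.17 CPM in CKO 1, 2 and 3 (log2 fold change 1.0, SE 0.74, adjusted p = 0.429, edgeR). Among adipocyte, ASPC, endothelial, mural and macrophage nuclei alone, a set chosen after seeing the data, it was -0.06 (adjusted p = 0.958).

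In T-cell-like nuclei, the other main source with 25.4% of its UMIs, Gata3 fell. Its level was 234, 207 and 141 CPM in FLOX 1, 2 and 3 and 73.6, 86.8 and 59.6 CPM in CKO 1, 2 and 3, with a gap between the groups. The log2 fold change was -1.41 (SE 0.21, adjusted p = 0.000185, edgeR), -1.62 (adjusted p = 0.000108) without FLOX 3 and -0.89 (adjusted p = 0.161) with classes by marker score. Unlike that of Il1rl1, this difference could also be tested without the ILC2-like nuclei, where it passed at -0.92 (adjusted p = 0.0157), and without the Treg-like nuclei too, at -1.03 (adjusted p = 0.0150). The levels without both were 120, 73.5 and 96.1 CPM in FLOX 1, 2 and 3 and 47.5, 52.6 and 50.2 CPM in CKO 1, 2 and 3.

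Gata3 was seen in 19.5 ± 1.69% of FLOX and 9.61 ± 0.862% of CKO T-cell-like nuclei (exact permutation p = 0.1), against 0.122% of adipocyte-like nuclei. Within single sub-clusters, gamma delta or type 17 T-like nuclei overlapped between groups, at 115, 0 and 127 CPM in FLOX 1, 2 and 3 and 143, 44.8 and 64.5 CPM in CKO 1, 2 and 3. That sub-cluster was 16.9 ± 2.61% of T-cell-like nuclei in FLOX and 6.25 ± 1.10% in CKO libraries. Treg-like nuclei were at 413, 205 and 206 CPM against 156, 183 and 90.7 CPM, where the FLOX levels rest on 10, 4 and 8 UMIs. ILC2-like nuclei were at 1108 ± 349 against 944 ± 386 CPM (SD, n = 3), and their groups overlapped. The part of the changed makeup in the remaining difference was not tested. NK-cell-like nuclei, a further class with the gene, were at 112, 38.1 and 53.2 CPM against 128, 92.9 and 96.1 CPM. In the order of class means T-cell-like (133.7 ± 73.1 CPM) and NK-cell-like nuclei (86.6 ± 34.4) did not differ beyond their spread over the 6 libraries. That spread holds the group difference: T-cell-like was the higher in 3 of 6 libraries, the FLOX ones, and the lower in each CKO library. NK-cell-like was above endothelial-like (7.86 ± 3.48) in 6 of 6 libraries (exact paired permutation p = 0.031, adjusted 0.188). Igsf5 (0.96), Vipr1, a receptor gene for vasoactive intestinal peptide (0.95), and Gm13219 (0.92) were most like Gata3 in pattern.

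The effector gene Areg was close to absent from these nuclei. Its 60 UMIs lay in 10, 2 and 7 nuclei of FLOX 1, 2 and 3 and 5, 6 and 2 nuclei of CKO 1, 2 and 3. Adipocyte-like nuclei held 34 of them, 20 of these in a single nucleus of CKO 1. T-cell-like nuclei held 11, in 5 nuclei of CKO 1 and 2. ILC2-like nuclei held 2 and Treg-like nuclei 9. Every class and the whole tissue had too few UMIs of it for the edgeR test, so no difference was detectable at this depth.

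**Figure D5:**
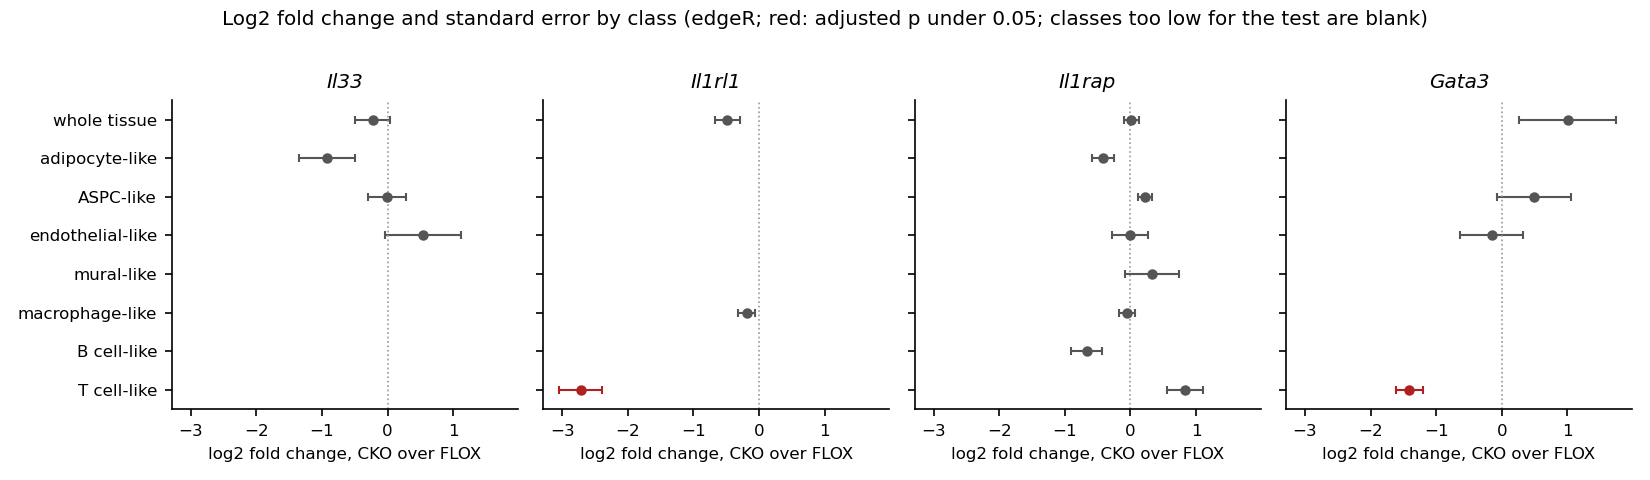
Log2 fold change of CKO over FLOX libraries with its standard error (horizontal axis) for 4 genes by class (vertical axis), from edgeR on summed counts. Red points passed at an adjusted p under 0.05, and these are Il1rl1 (-2.72) and Gata3 (-1.41) in T-cell-like nuclei alone.

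The wider pathway was read from 7 lists of 95 genes in all, with receptor signalling, other IL-1 family members, type 2 cytokines and receptors, the EGF family, type 2 transcription factors, the adipose Treg programme and proteases that cut interleukin 33. In T-cell-like nuclei 9 of the 43 list genes tested passed, all of them lower in CKO. Of all genes of the class 3.89% passed, 69 higher and 196 lower in CKO, so most calls there were lower. The median log2 fold change of the 43 list genes was -0.06, against 0.00 for all genes of the class. The interleukin 1 receptor gene Il1r1 was at 206, 136 and 154 CPM in FLOX 1, 2 and 3 and 53.0, 73.2 and 58.3 CPM in CKO 1, 2 and 3 (log2 fold change -1.51, SE 0.20, adjusted p = 0.000101, edgeR). Rora, a nuclear receptor needed for ILC2, was at 677, 464 and 495 CPM against 172, 248 and 193 CPM (-1.47, SE 0.16, adjusted p = 1.46e-05). The groups of both genes lie far apart.

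The other 7 that fell in T-cell-like nuclei covered several roles. Among type 2 lineage factors these were Maf (-1.19) and Id2 (-1.48), and in the adipose Treg programme Pparg, its nuclear receptor (-1.65), and the chemokine receptor genes Ccr2 (-1.76) and Cxcr6 (-1.27). Il18r1, which encodes a chain of the interleukin 18 receptor, was at -0.71, and Irak3, a kinase-like inhibitor of the receptor pathway, at -1.44. Their adjusted p ran up to 0.0476, that of Pparg. With the replicate number as a block 8 of the 9 passed, and Irak3 did not (adjusted p = 0.0693, edgeR). Leaving out 1 library in turn left 5 to 7 of the 9, and those lost were among Pparg, Ccr2, Irak3 and Id2. Classes by marker score left 3, which were Il1r1, Maf and Rora. Foxp3, Il10, Il5, Il13 and Myd88 were too low for the test there: Foxp3 was at 19.4 ± 9.31 CPM in FLOX and 13.4 ± 4.59 CPM in CKO libraries, and Myd88 at 7.66 ± 7.01 and 9.82 ± 2.28 CPM (SD, n = 3). Il10 had 9 UMIs in this class and Il5 and Il13 had 1 each. Egfr, the receptor that amphiregulin binds, was at -0.89 (SE 0.59, adjusted p = 0.549, edgeR). The same change in makeup of the class stands beside these 9 genes, and its part was not tested.

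Elsewhere the lists held 1 gene that passed. In macrophage-like nuclei Il4ra, a receptor chain for interleukins 4 and 13, rose from 25.2, 27.5 and 21.2 CPM in FLOX 1, 2 and 3 to 39.6, 52.4 and 41.1 CPM in CKO 1, 2 and 3 (log2 fold change 0.87, SE 0.15, adjusted p = 0.0413, edgeR). It was 1 of 47 list genes tested there and did not overlap between groups, as was so for 19.2% of genes in the class. The call was lost with the replicate number as a block (adjusted p = 0.0906, edgeR), where 0 genes of the class passed. It was also lost without FLOX 1, FLOX 3, CKO 1 or CKO 3 (adjusted p of 0.0900 to 0.177), while the fold change stayed between 0.75 and 0.96 with 1 library left out. The way the class was drawn mattered too. At Leiden resolution 2, by marker score and without doublet removal Il4ra did not pass (adjusted p = 0.0718, 0.0738 and 0.0602, edgeR). With library totals as scaling it barely passed (adjusted p = 0.0499, edgeR). None of 62 list genes passed in adipocyte-like nuclei, where 11 had an unadjusted p under 0.05 and DESeq2 called 5. Of all 15730 genes tested in that class, 3593 had such a p, and DESeq2 called 529 higher and 770 lower in CKO. None of 56 list genes passed in ASPC-like nuclei, where 13 had such a p and DESeq2 called 4. Of all 13783 genes tested in that class, 1534 had such a p, and DESeq2 called 84 higher and 108 lower in CKO. Egfr was highest in ASPC-like nuclei, at 2404 ± 274 CPM in FLOX and 2472 ± 459 CPM in CKO libraries (log2 fold change 0.03, adjusted p = 0.965, edgeR), and Il1r1 was at 471 ± 34.3 and 501 ± 85.0 CPM there.

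In the whole tissue none of 82 list genes passed, while 36 had an unadjusted p under 0.05 and DESeq2 called 26. Of all 19310 genes tested there, 5456 had such a p, and DESeq2 called 1735 higher and 1582 lower in CKO. The median log2 fold change of the list genes was 0.26, against 0.01 for all genes. By list it was 0.84 for the adipose Treg programme, 0.88 for type 2 transcription factors, 0.60 for other IL-1 family members and 0.04 for receptor signalling. The share of T-cell-like nuclei, 1.56% in FLOX and 8.51% in CKO libraries, moved with these medians, and their part was not tested. Foxp3 was at 0.505 ± 0.163 and 0.883 ± 0.582 CPM, Il10 at 1.44 ± 0.457 and 1.14 ± 0.14 CPM, Il5 at 0.590 ± 0.118 and 0.649 ± 0.169 CPM, and Il13 had 14 UMIs in all (SD, n = 3). Most UMIs of these 3 cytokine genes lay outside lymphocytes. Macrophage-like nuclei held 264 of the 318 Il10 UMIs, and T-cell-like nuclei 9. Of the 148 Il5 UMIs, 60 were in adipocyte-like, 66 in ASPC-like and 1 in T-cell-like nuclei. Adipocyte-like nuclei held 9 of the 14 Il13 UMIs.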

How the data were processed

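The authors deposited a filtered matrix of raw UMI counts per gene and nucleus for each library, made with Cell Ranger 7.1 per the submitters' processing notes, which name mm10 and GRCh38. The 32285 features are all from mouse. The use of intronic reads is not given in the sources used here. Nuclei with under 500 genes or over 5% mitochondrial UMIs were removed, as were the highest Scrublet doublet scores at 0.8% per 1000 barcodes.

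Clusters were made in scanpy 1.11.5 (3000 variable genes, 40 principal components, Leiden resolution 1, the 5 genes left out) and named where at least 3 markers and 50% of a list were 2-fold above the other clusters. The 13 classes held 50354 nuclei, and 5872 stayed unnamed. For 87.6% of these nuclei a marker score of their own led to the class of their cluster. Counts were summed per library and class and tested with edgeR 4.0.16 (quasi-likelihood, TMM, filterByExpr), with Benjamini-Hochberg adjustment over all genes of the class and a threshold of 0.05. DESeq2 1.42.0 was an alternative. The script was tested on simulated data. Shares and single levels were compared by two-sided exact permutation over libraries.

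The 5 genes and the lists were chosen with earlier results of these data known. The 5 were named in every class, list genes where they passed (at most 4 per list), 7 further genes whatever their value, and for pattern the 3 genes with the highest correlation. The deviations of same-numbered libraries had correlations of 0.409, 0.139 and 0.120. Those of unlike number ran from -0.365 to 0.253, the last for FLOX 2 with CKO 3. This is at most a weak hint that the replicate numbers pair the libraries, which the labels do not state. Where nothing more is said, p-values measure the spread between these libraries.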

Additional observations from a re-analysis of the deposited data

How the results depend on the processing

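The falls of Il1rl1 and Gata3 in T-cell-like nuclei kept their direction in every alternative that could be fitted and passed in each except classes by marker score, at -2.27 (adjusted p = 0.123) and -0.89 (adjusted p = 0.161). Leaving out 1 library gave -3.03 to -2.33 and -1.62 to -1.20. With the replicate number as a block they were -2.68 (adjusted p = 3.86e-05) and -1.41 (adjusted p = 7.67e-05), and the block changed no other call on the 5 genes. Among the list genes it ended the calls of Il4ra in macrophage-like (adjusted p = 0.0906) and Irak3 in T-cell-like nuclei (adjusted p = 0.0693). Of 434 alternatives of 34 fold changes, 391 kept direction and side of the threshold and 40 turned in sign, all of changes that had not passed, and the cause was not tested. In ASPC-like nuclei Il33 was 0.00488 with library totals, 9.97e-05 with DESeq2, 0.0271 with at least 1000 genes and 0.0407 without doublet removal. In macrophage-like nuclei Il1rl1 was 0.10 without doublet removal, 0.0382 at resolution 2, 0.10 by marker score and 0.0739 with the 5 genes in clustering, and Il1rap was 0.00194 without doublet removal. Il1rap was 0.0146 in endothelial-like nuclei with library totals and 0.00843 in cluster 12 with no filter, which took Il1rl1 in cluster 9 to -1.04 (adjusted p = 0.0401). Gata3 in the whole tissue was -0.0644 over the adipose classes alone. Leaving out 1 library gave, for Il33, -0.35 to 0.23 in ASPC-like and -0.0369 to 1.36 in endothelial-like nuclei and -0.17 to 0.39 in cluster 19. It gave, for Il1rap, -0.0692 to 0.10 in the whole tissue, -0.27 to 0.25 in endothelial-like nuclei, and -0.0828 to 0.18, -0.0650 to 0.25, -1.15 to 0.41, -0.34 to 0.31, -0.55 to 0.0221 and -0.34 to 0.00760 in clusters 5, 9, 11, 12, 13 and 19. It gave -0.0308 to 1.14 for Gata3 in ASPC-like and -0.59 to 0.17 in endothelial-like nuclei, and -0.29 to 0.0479 for Il1rl1 in cluster 12. The difference in the share of ASPC-like nuclei with Il33 was -0.45 percentage points after thinning, -0.0816 at 2 or more UMIs and -2.21 to 1.66 without 1 library. That of Il1rl1 in macrophage-like nuclei was 1.16 by marker score, that of Il1rap in NK-cell-like nuclei -0.98 at 2 or more UMIs and -0.0644 to 3.94 without 1 library, and that of Areg in adipocyte-like nuclei 0.0106 at 2 or more UMIs. The Il1rl1 level of T-cell-like minus macrophage-like nuclei was -20.2 CPM by marker score. The Il1rap level of ASPC-like minus NK-cell-like nuclei was 45.7 CPM by marker score and 50.7 CPM as a mean over nuclei, each with an exact permutation p of 0.031. DESeq2 called 26, 5, 4 and 6 list genes in the whole tissue and in adipocyte-like, ASPC-like and macrophage-like nuclei. Of all 19310, 15730, 13783 and 12187 genes tested there, it called 1735, 529, 84 and 122 higher and 1582, 770, 108 and 191 lower in CKO. Single clusters, the adipose classes alone and T-cell-like nuclei without ILC2-like or Treg-like nuclei were chosen after seeing the data. Areg everywhere, and Il1rl1 in T-cell-like nuclei without the ILC2-like ones, had too few UMIs for the edgeR test. Low depth and low expression cannot be told apart there.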
